A study of Mus musculus with 12 samples.

Results

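The question addressed was whether the difference between Jmjd2a- or Jmjd2c-depleted B cells and their controls was the same at day 3 of culture as at day 1. It was put as an interaction of depletion with time. For each probe set, the day 3 control mean (2 arrays) was subtracted from the mean of the 4 depleted arrays of day 3, and the same difference at day 1 was then subtracted from it. Both depletions were pooled, and all 12 of the 12 arrays of the series entered. A positive interaction, on the log2 scale, means that a transcript stood higher against its control at day 3 than at day 1. A negative one means that it stood lower.

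Arrays carrying the label Jmjd2a-depleted or Jmjd2c-depleted were set against control arrays at day 3 and at day 1, with 2 arrays in each of the 6 groups. All cells were B220-positive splenic B cells, taken with magnetic beads from C57BL/6 mice that carry the transgene Tg(IghelMD4)4Ccg, which gives their B cells a receptor specific for hen egg lysozyme (HEL). Every group, the control included, was cultured with HEL, anti-CD40 and IL21. The control received a control RNA in place of one against Jmjd2a (now Kdm4a) or Jmjd2c (now Kdm4c). The labels speak of transfected siRNA in one field and of an sh virus in another, and the titles call the replicates biological without naming separate cultures, animals or an age. P-values therefore measure only the spread between these arrays, which may be technical. A culture of bead-selected cells can hold other spleen cells, and bulk RNA cannot tell fewer cells of a type from less RNA per cell.

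Kdm4a and Kdm4c belong to the KDM4 family of demethylases, which remove methyl groups from lysine 9 and lysine 36 of histone H3. Within days of a signal through the receptor, CD40 and the IL-21 receptor, a resting B cell grows, copies its DNA, divides and may turn into an antibody-secreting plasma cell. Myc drives growth in that course, Bach2, Pax5 and Bcl6 hold the B cell state, and Irf4, Prdm1 and Xbp1 direct the plasma cell state. A cell that leaves rest lowers quiescence genes such as Klf2, Btg1 and Cdkn1b.

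The targeted transcripts did not bear out the labels. Kdm4a read 8.08 and 8.05 on the day 3 arrays labelled Jmjd2a-depleted, against 8.20 and 8.17 on day 3 controls. On the day 1 arrays it read 7.94 and 8.09, against 7.90 and 7.92. Its interaction over both labels was -0.31 ± 0.11 (SE throughout) with an adjusted p of 0.058, and it passed in 3 of the 12 fits that left out 1 array (-0.35 to -0.28). Kdm4c read 7.81 and 7.78 on the day 3 arrays labelled Jmjd2c-depleted, against 7.96 and 7.56 on day 3 controls, and 8.02 and 7.98 at day 1, against 7.78 and 7.84. Its interaction was -0.13 ± 0.14 (adjusted p = 0.62), and it was 0.07 without day 3 control replicate 1 (adjusted p = 0.6) and -0.33 without replicate 2 (adjusted p = 0.023). "Depleted" below means the arrays so labelled.

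Across all probe sets, the day 3 depleted arrays correlated most with the day 1 controls, at a mean r of 0.9961. They correlated with the day 3 controls at 0.9862 and with the depleted arrays of day 1 at 0.9895. The 2 day 3 controls correlated with each other at only 0.9887, against 0.9959 to 0.9978 between the replicates of the other groups. Probe sets are not independent, so these values only describe the arrays. The day 3 controls differed most between replicates, with an SD of 0.259 against 0.115 to 0.157 in the other groups. Both day 3 controls carry the same replicate number in their descriptions, so their numbers here come from the titles, and all groups are as labelled. Day 3 control replicate 2 had an 18S signal of 10.732 and an interquartile range of 3.082, against 11.729 to 12.733 and 3.377 to 3.627 elsewhere. Of the B cell markers, Cd79b read at least 11.15, Ms4a1 at least 11.10 and Cd22 at least 11.20 on every array. The mean over all 5 measured B cell markers, which include Cd79a and Pax5, was lower, from 9.506 to 10.74.

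The interaction passed the test (limma, Benjamini-Hochberg adjusted p under 0.05) at 9754 of 45037 probe sets, which is 21.7%. It was positive at 6095 (13.5%) and negative at 3659 (8.12%). Of these 9754, 1108 were at least 2-fold positive (2.46% of all 45037 probe sets) and 1240 at least 2-fold negative (2.75% of all). In 9434 of the 9754 the sign held in the most opposed choice of 1 array from each group, which is 20.9% of all probe sets. Called or not, the sign held so in 11992 of the 45037 (26.6%). The calls numbered 15371 without day 3 control replicate 1. Depleted arrays differed from control at 9437 probe sets at day 3 (21%), with 13.7% higher and 7.3% lower. They differed at 5816 at day 1 (12.9%), with 6.16% higher and 6.75% lower. That order turned with array weights, to 5095 at day 3 and 9657 at day 1, and it also turned without day 3 control replicate 2.

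Positive and negative interactions were built differently. These counts describe the probe sets called and are no further test, since the interaction is made of the same differences. Among the 6095 positive calls, 3122 (51.2%) were higher in depleted arrays at day 3 and did not pass at day 1. A further 1663 (27.3%) crossed over: they were higher at day 3 and lower at day 1. In 4624 (75.9%) the group furthest from the mean of the others was the day 3 control, which lay below them. Among the 3659 negative calls, 1245 (34%) were higher in depleted arrays at day 1 only by these tests, 1138 (31.1%) were lower at day 3 only, and 773 (21.1%) crossed over. The group furthest out was the day 3 control, lying above, in 1579 (43.2%), and the depleted day 1 group, lying above, in 1445 (39.5%). The depleted day 3 group stood furthest in 71 positive calls (1.16%) and 82 negative calls (2.24%). Among the 35283 probe sets not called, the day 3 control was also often furthest out, above in 34.6% and below in 15.1%. Of these, the depleted day 1 group lay furthest above in 8.61%, and the depleted day 3 group furthest above in 5.43% and below in 3.94%.

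**Figure D1:**
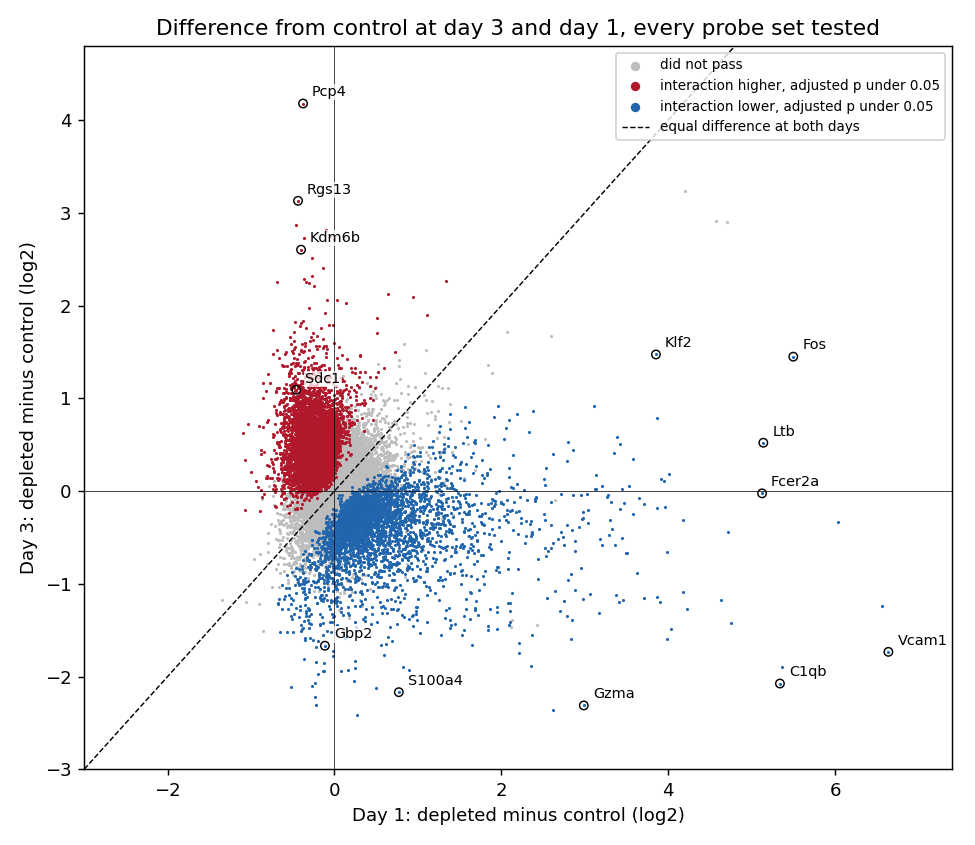
Difference of depleted from control arrays at day 3 (vertical, log2) against the same at day 1 (horizontal, log2) for each of the 45037 probe sets, with those past the interaction test in red (higher) and blue (lower). Many red points lie near 0 at day 1, and they reach 4.18 at day 3 (Pcp4). Of the red points, 1663 were called higher at day 3 and lower at day 1. Blue points extend to 6.64 at day 1 (Vcam1).

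**Figure D2:**
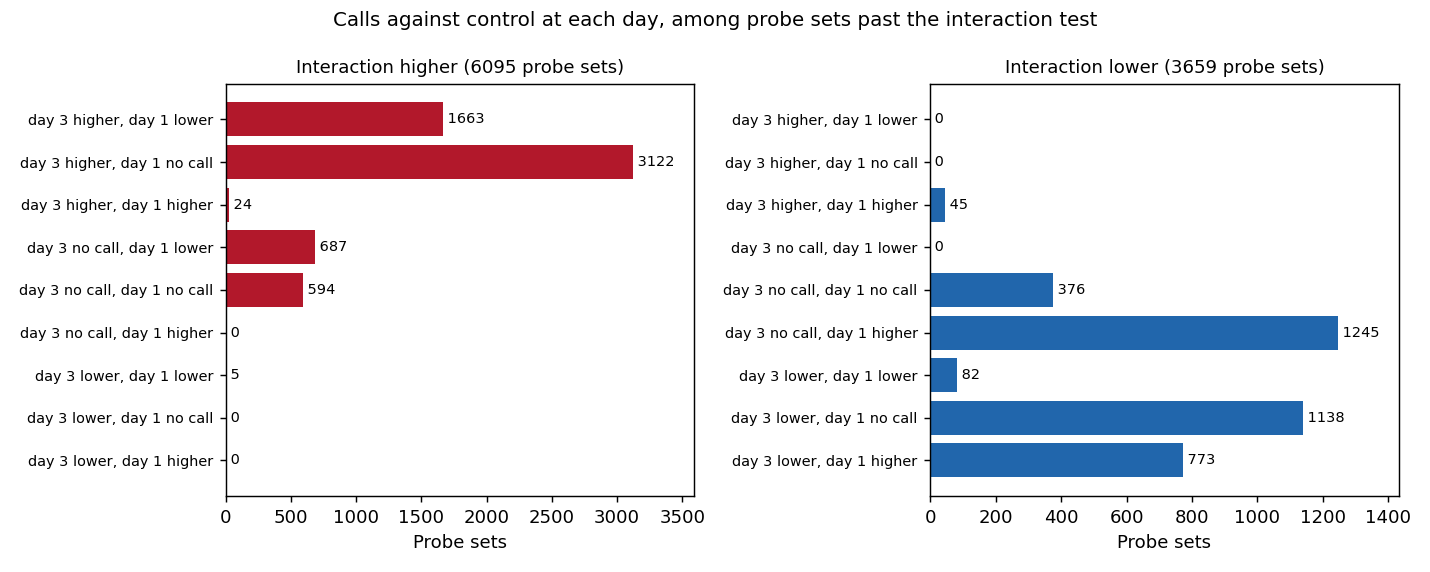
Number of probe sets (horizontal bars) by their calls against control at day 3 and day 1, among the 6095 positive (left) and 3659 negative (right) interactions. The longest bar on the left is day 3 higher with no call at day 1 (3122), and on the right it is day 1 higher with no call at day 3 (1245).

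Seen over time, which kind of cell had more calls depended on how arrays were weighted and on whether day 3 control replicate 2 was included. With equal weights, day 3 differed from day 1 at 6917 probe sets in depleted cells (15.4%), with 7.37% higher and 7.99% lower at day 3. In controls it differed at 10741 (23.8%), with 8.46% higher and 15.4% lower. With array weights, where each day 3 control counted 0.278 and each day 1 control 1.566, the order turned, to 10472 in depleted cells and 7166 in controls. Of the positive calls, 3772 (61.9%) did not pass between days in depleted cells and were lower at day 3 in controls. Another 1314 (21.6%) were higher at day 3 in depleted cells and lower at day 3 in controls. Of the negative calls, 1190 (32.5%) were lower at day 3 in depleted cells alone by these tests, 1179 (32.2%) were higher at day 3 in controls alone, and 716 (19.6%) went opposite ways.

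The largest positive interactions belonged to transcripts that were low in the day 3 controls. Pcp4 encodes a small calmodulin-binding protein. It read 8.67 and 8.58 (Jmjd2a) and 8.50 and 8.59 (Jmjd2c) on the day 3 depleted arrays, against 4.03 and 4.78 on the day 3 controls. Its day 1 values were 8.42, 8.46, 8.43 and 8.41 on depleted arrays, against 8.76 and 8.86 on controls. The day 3 controls stood apart from the other 10 arrays by over 3 log2 units, and the fitted interaction was 4.56 (adjusted p = 2.8e-07). Both day 3 controls lay under the array-wide median level of 5.22. The table used here holds no detection calls, so a value so low cannot be told from background and the size is approximate. The same holds for 6 of the 12 largest positive and 10 of the 12 largest negative interactions, which entered through the groups where they were high.

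Rgs13, a regulator of G protein signalling found in germinal centre B cells, had the same layout. On day 3 depleted arrays it read 8.29 and 8.45 (Jmjd2a) and 8.20 and 8.34 (Jmjd2c), against 5.45 and 4.93 on day 3 controls. Day 1 values were 7.92, 8.36, 7.84 and 8.17 on depleted arrays, against 8.47 and 8.55 on controls. Its interaction was 3.57 ± 0.22 (adjusted p = 9.2e-07). Kdm6b, a demethylase of histone H3 lysine 27, read 8.19, 8.34, 8.19 and 8.14 on day 3 depleted arrays, against 5.96 and 5.26 on day 3 controls. The day 1 arrays gave 8.20, 8.38, 8.14 and 8.24, against 8.61 and 8.68. This probe set gave 3.00 ± 0.21, the brightest one for Kdm6b gave 1.18 ± 0.11, and 2 of its 3 passed.

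The others among the 12 largest ran between 2.54 and 3.33. They were Pigr (3.33), which carries polymeric antibody across epithelia, the protease inhibitor Serpinb1a (2.91) and the transcription factor Maf (2.80). Xrcc5 (2.78) encodes the Ku80 subunit of end joining, Spred2 (2.59) restrains the Ras pathway, and Smad1 (2.59) carries BMP signals. 2010204K13Rik reached 2.65 and the T cell receptor segment Trav9d-3 reached 2.55. One Ighm probe set reached 2.54, but 3 of the 11 Ighm probe sets went the other way, the brightest at -0.75. None of these genes passed at day 1 except 2010204K13Rik, which was lower in depleted arrays by 0.37 (adjusted p = 0.035).

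Growth and biosynthesis genes made up the broadest positive groups. For each list below, the share over all probe sets was 13.5% positive and 8.12% negative. That share is a low mark for the lists, whose genes are read at their brightest probe set. It includes 19704 probe sets that stayed below the median level of 5.22 on every array. With 1 probe set per gene, 3152 of 18193 genes were positive and 2220 negative. All 27 measured Myc targets and ribosome biogenesis genes were positive, with a median interaction of 0.95, against -0.006 over all probe sets. The median difference was 0.69 at day 3 and -0.26 at day 1: all 27 were higher at day 3, while at day 1 24 were lower and 1, Myc itself, was higher. Of all probe sets, 13.7% were higher at day 3 and 6.75% lower at day 1. In controls all 27 fell between days (median -0.84), as did 15.4% of all probe sets. In depleted cells 19 rose (median 0.16), as did 7.37% of all.

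Srm, which makes spermidine, is an example of the crossing. On day 3 depleted arrays it read 11.53 and 11.63 (Jmjd2a) and 11.57 and 11.63 (Jmjd2c), against 10.43 and 10.56 on day 3 controls. On day 1 depleted arrays it read 11.31, 11.36, 11.35 and 11.33, against 11.67 and 11.71 on controls. The groups did not overlap at either day, and the interaction was 1.44 ± 0.07 (adjusted p = 2.8e-07). Interactions were 1.05 for the nucleolar protein Gnl3, 0.99 for Odc1, the first enzyme of polyamine synthesis, and 0.86 for the mitochondrial chaperonin Hspd1.

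Myc itself did not cross. It read 10.33 and 10.34 (Jmjd2a) and 10.12 and 10.15 (Jmjd2c) on day 3 depleted arrays, against 9.15 and 8.97 on controls. At day 1 it read 10.68, 10.51, 10.57 and 10.88 on depleted arrays, against 10.36 and 10.30 on controls. It was thus above control at both days, by 1.18 at day 3 (adjusted p = 2e-06) and 0.33 at day 1 (adjusted p = 0.021), and its interaction was 0.85 ± 0.12. Ccnd2, the D-type cyclin that opens the cell cycle, did cross. It read 11.87, 11.95, 11.86 and 11.90 on day 3 depleted arrays, against 10.97 and 11.12 on controls, and 11.78, 11.70, 11.72 and 11.68 at day 1, against 12.08 and 12.04. All 7 of its probe sets were positive, the brightest at 1.19 ± 0.07 (adjusted p = 6.1e-07).

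Of 16 measured genes of cholesterol synthesis and uptake, 14 were positive and none was negative (median 0.67, with 0.41 at day 3 and -0.37 at day 1). Cyp51, the lanosterol demethylase, gave 1.13, Sc5d 1.13, Idi1, which isomerises the isoprenoid unit, 0.76 and Hmgcs1 0.54. The mean level of the list lay between 9.886 and 9.945 on day 3 depleted arrays, against 9.577 to 9.667 on day 3 controls. At day 1 it lay between 9.577 and 9.658 on depleted arrays, against 9.973 and 9.974 on controls. Depleted arrays of day 1 and controls of day 3 thus overlapped in range. The remaining groups lay higher, with the day 1 controls above the day 3 depleted arrays.

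Sugar and amino acid supply moved in the same direction. Of 15 glycolysis and glucose transport genes, 10 were positive and 1, the transporter Slc2a3 (-0.77), was negative (median 0.36). Slc16a1, a lactate and pyruvate carrier, gave 1.69 ± 0.07, hexokinase Hk2 1.38 ± 0.09 and the phosphofructokinase Pfkp 0.93 ± 0.07. Among 20 Atf4 targets and amino acid supply genes 11 were positive and 3 negative (median 0.41), led by the cysteinyl-tRNA synthetase Cars (1.27) and the serine hydroxymethyltransferase Shmt2 (1.26). The 3 negative ones were the stress genes Ddit3, Ddit4 and Sesn2, and this count was 1 without any of 8 single arrays. Of 23 oxidative phosphorylation genes, 11 were positive and 1 negative with a small median of 0.20, and 7 were positive without day 1 control replicate 2. Heat-shock proteins and chaperones gave 9 positive and 0 negative of 16 (median 0.35), among them the chaperonin subunits Cct2 (0.37) and Cct8 (0.51).

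Replication and mitosis genes went opposite ways. Of 33 DNA replication (G1/S) genes, 27 were positive and none negative, with a median of 0.62 (0.30 at day 3 and -0.36 at day 1). Of 32 mitosis (G2/M) genes, none was positive and 22 were negative, with a median of -0.53. The mitosis list was below control on both days, with medians of -0.95 at day 3 (30 members lower) and -0.40 at day 1 (25 lower). Mitosis genes rose between days in both kinds of cells: 31 rose in depleted cells (median 0.70) and all 32 in controls (median 1.23). Replication genes parted: 25 rose in depleted cells (median 0.28), while 19 fell and 4 rose in controls (median -0.35).

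Mcm2, a subunit of the replicative helicase, shows the replication layout. It read 10.59 and 10.70 (Jmjd2a) and 10.56 and 10.63 (Jmjd2c) on day 3 depleted arrays, against 9.81 and 9.41 on controls, and 10.44, 10.41, 10.29 and 10.37 at day 1, against 10.78 and 10.80. The groups did not overlap on either day, and the interaction was 1.43 ± 0.12 (adjusted p = 7.7e-06). Its partners Mcm4 and Mcm5 gave 0.80 and 0.65, and the licensing factor Cdt1 gave 0.98.

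Ccnb2, a mitotic cyclin, shows the other layout. It read 9.44 and 9.31 (Jmjd2a) and 9.52 and 9.35 (Jmjd2c) on day 3 depleted arrays, against 10.82 and 11.01 on controls, and 8.30, 8.29, 8.25 and 8.24 at day 1, against 8.66 and 8.69. Depleted arrays were the lower ones at both days, by 1.51 and then by 0.40 log2 units, and the interaction was -1.11 ± 0.11 (adjusted p = 1.7e-05). The centromeric histone Cenpa gave -1.21 ± 0.10, the ubiquitin-conjugating enzyme Ube2c -1.04 ± 0.11 and the proliferation marker Mki67 -0.70 ± 0.07. For Cenpa, 1 of 3 probe sets passed. Cdc25b, a phosphatase that activates mitotic kinase, was the 1 member higher than control at day 1 (0.73).

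Because these 2 lists moved apart, the promoters of their members were read for the sites known for each phase: the E2F site TTTCGCGC of replication genes, and the CCAAT box and cell cycle homology region TTTGAA of mitosis genes. The letters were searched on both strands in the 250 bases before each start in RefSeq (GRCm38.p6), where the table held 28 of the 33 replication genes (33 promoters) and 26 of the 32 mitosis genes (28 promoters). The E2F letters stood in 12.1% of the replication promoters and 3.57% of the mitosis promoters, against 0.256% of all 32851 promoters. CCAAT stood in 75% of the mitosis promoters and 60.6% of the replication promoters, against 33.8% of all. TTTGAA stood in 39.3% and 12.1%, against 16% of all. A match describes the letters and is no evidence of binding. Below, 120 bases are shown on the gene's strand for 2 genes of each list, taken as the members of smallest p whose promoter holds the E2F letters (replication) or CCAAT (mitosis). They end at the base before the start, except that of Mcm5, which runs from 209 to 90 bases before it. All matches of TTTCGCGC and CCAAT, or their reverse complements, are in capitals.
Mcm5 (chr8:75109300-75109419, + strand): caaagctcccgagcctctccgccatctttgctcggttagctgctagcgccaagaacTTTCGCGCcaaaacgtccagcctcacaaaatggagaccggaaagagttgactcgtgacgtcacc
Mcm6 (chr1:128359706-128359825, - strand): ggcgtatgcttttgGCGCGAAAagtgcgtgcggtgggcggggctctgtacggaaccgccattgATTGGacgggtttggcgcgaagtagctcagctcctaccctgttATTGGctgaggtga
Cenpa (chr5:30666766-30666885, + strand): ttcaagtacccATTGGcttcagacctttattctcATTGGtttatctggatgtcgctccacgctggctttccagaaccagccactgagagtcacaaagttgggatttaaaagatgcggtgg
Ccnb2 (chr9:70421555-70421674, - strand): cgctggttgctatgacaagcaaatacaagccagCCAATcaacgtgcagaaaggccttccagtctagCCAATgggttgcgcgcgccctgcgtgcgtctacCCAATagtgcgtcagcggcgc
Mcm5 and Mcm6 hold 1 E2F match each in these stretches, and Mcm6 also holds 2 CCAAT boxes, as many as Cenpa. Ccnb2 holds 3. Mcm5 and Mcm6 were positive (0.65 and 0.59), and Cenpa and Ccnb2 negative (-1.21 and -1.11).

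**Figure D3:**
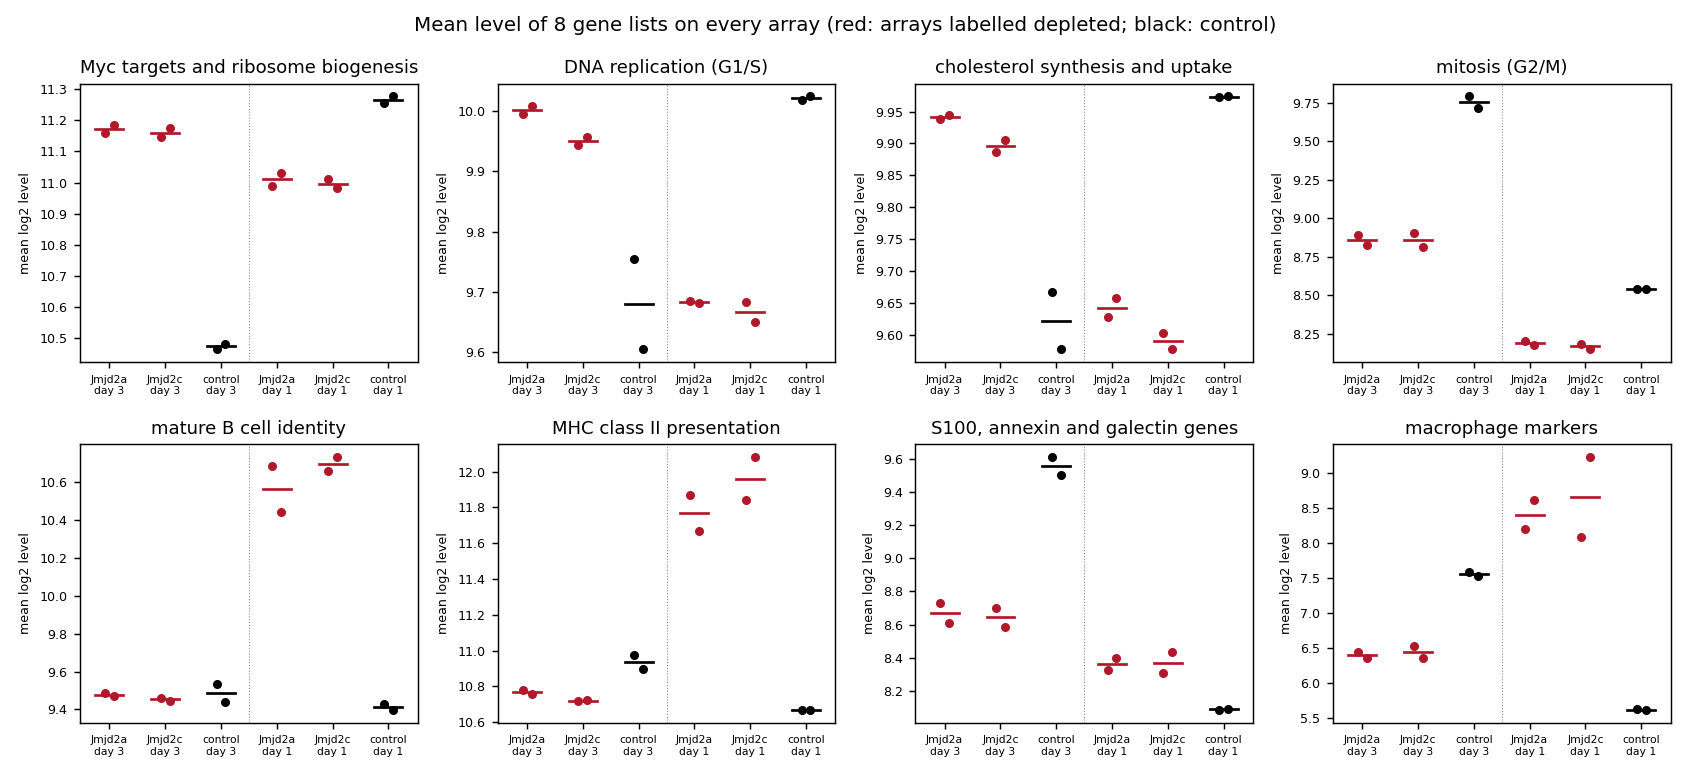
Mean log2 level (vertical) of 8 gene lists on each of the 12 arrays, with points for arrays and bars for group means, day 3 left of day 1, and within a day Jmjd2a, Jmjd2c (red) and control (black). In day 3 controls, Myc targets are lowest (10.465 to 10.483) and the mitosis list is highest (9.72 to 9.794). Replication and cholesterol genes are low in both day 3 controls and depleted day 1 arrays. B cell identity, MHC class II and macrophage lists are highest in depleted day 1 arrays.

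Germinal centre genes and the cytokine pathway given to the cells were mostly positive where they passed. Of 15 germinal centre genes, 6 were positive and 2 negative (median 0.39). The median was 0.21 without day 3 control replicate 2 and 0.589 without replicate 1, when 9 were positive. Besides Rgs13 they included Ung, the uracil glycosylase of class switching (1.83 ± 0.10), its mismatch repair partner Msh6 (1.17 ± 0.13) and Mef2b (1.02 ± 0.15). The 2 negative members were Fas (-0.96) and Plxnb2 (-0.52). Of 16 genes of IL-21 receptor and STAT signalling, 7 were positive and 3 negative (median 0.36). Il21r itself crossed: it read 10.15, 10.19, 10.19 and 10.20 on day 3 depleted arrays, against 9.95 and 10.00 on controls, and 9.86, 9.93, 9.95 and 9.93 at day 1, against 10.32 and 10.30. Its interaction was 0.60 ± 0.07 (adjusted p = 7.6e-05), beside 0.48 for the feedback inhibitor Socs3, -0.81 for Socs2 and -2.02 for the IL-10 receptor chain Il10ra.

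NF-kB factors and targets were divided, with 7 positive and 4 negative of 17, and 4 positive without day 1 control replicate 2. The subunit gene Rel gave 1.51 ± 0.11 and the inhibitor Nfkbib 1.02 ± 0.11, while the cytokine subunit Ebi3 gave -2.38 ± 0.18 and the chemokine Ccl22 -2.01 ± 0.25. Nfkbia gave 0.12 with an adjusted p of 0.05 and did not pass at its brightest probe set, although 4 of its 5 probe sets were positive. CD40, BAFF and lymphotoxin genes were mostly negative, 9 against 2 of 15, with 8 against 0 without day 1 control replicate 2. Ltb, a lymphotoxin subunit, gave -4.62 ± 0.28: it read 12.48, 11.55, 12.31 and 12.33 on depleted arrays of day 1 and no higher than 7.64 on any other array. Lta gave -1.65 and the signalling adaptor Traf5 -1.34. The costimulator Cd86 gave -0.72.

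**Figure D4:**
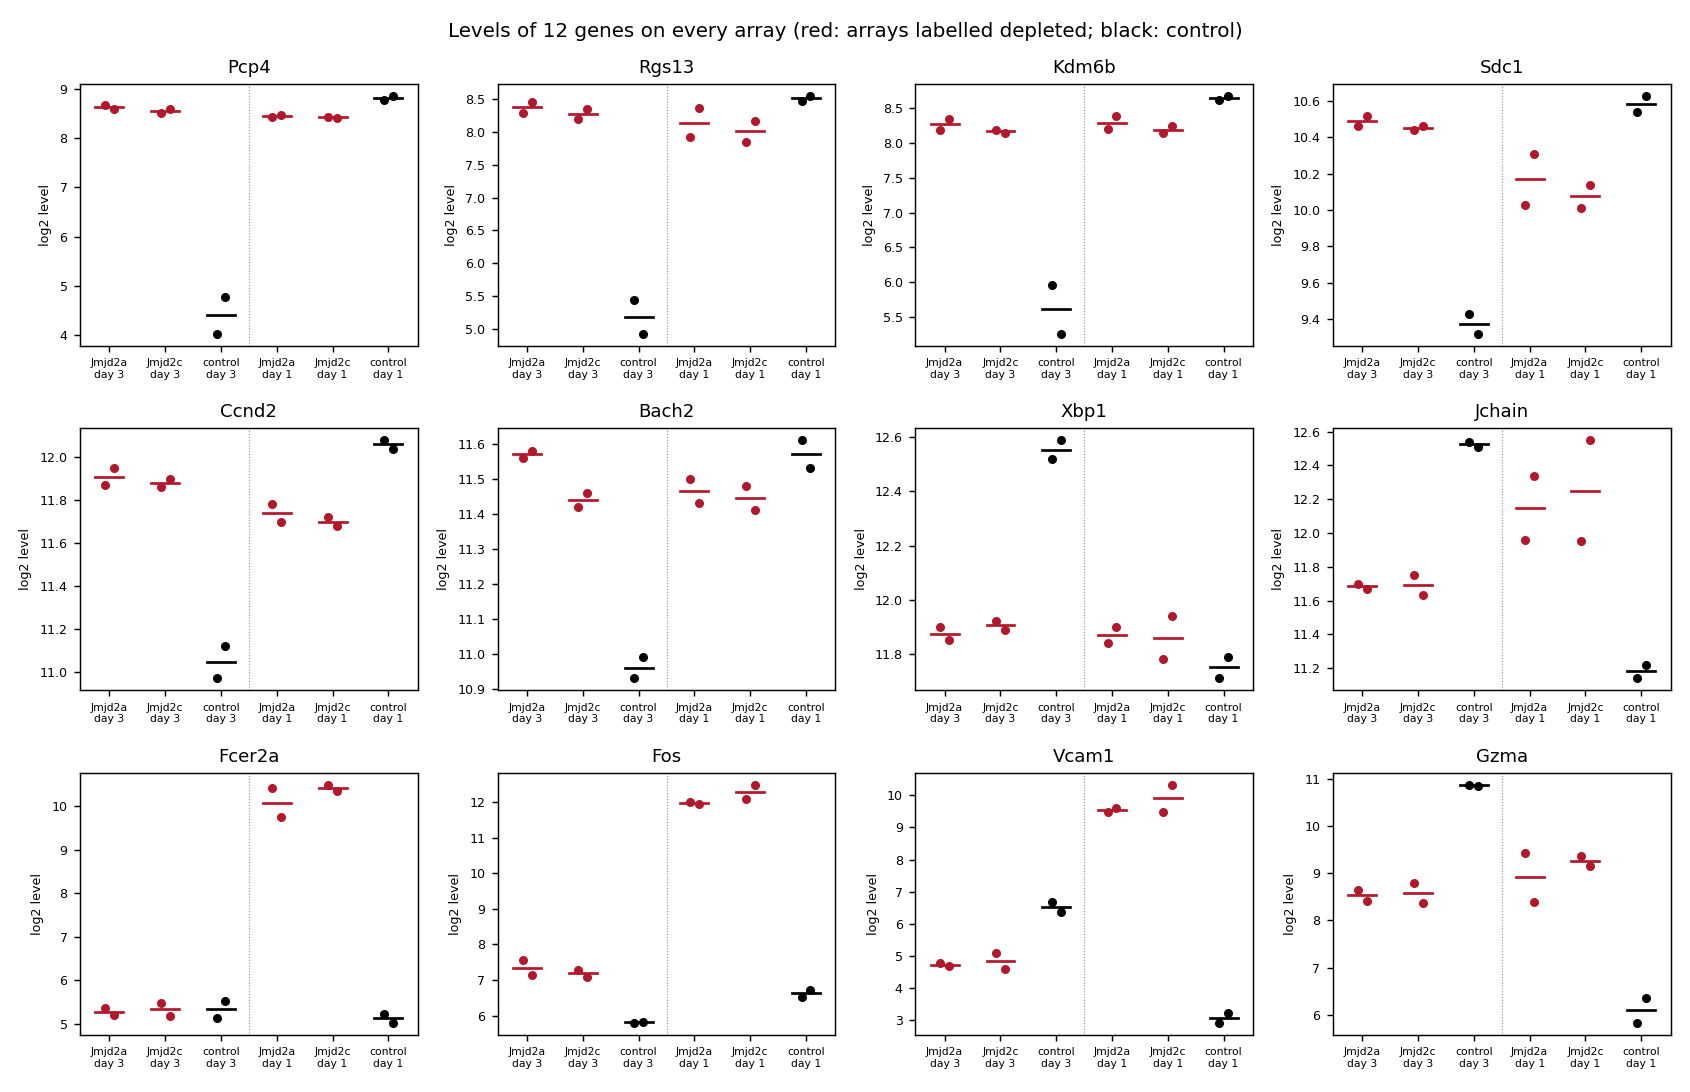
Log2 level (vertical) of 12 genes on each of the 12 arrays, with points for arrays and bars for group means, day 3 left of day 1, and within a day Jmjd2a, Jmjd2c (red) and control (black). Pcp4, Rgs13, Kdm6b, Sdc1, Ccnd2 and Bach2 are lowest in day 3 controls. Fcer2a, Fos and Vcam1 are highest in depleted day 1 arrays, and Gzma is highest in day 3 controls (10.88 and 10.85).

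The plasma cell programme was mostly negative, and its surface marker went the other way. Of 19 measured genes, 14 were negative and 1 positive, with a median of -0.75 (-0.41 at day 3 and 0.34 at day 1). Jchain, which joins the units of secreted IgM, read 11.70 and 11.67 (Jmjd2a) and 11.75 and 11.63 (Jmjd2c) on day 3 depleted arrays, against 12.54 and 12.51 on controls. On the day 1 arrays it read 11.96, 12.34, 11.95 and 12.55 on depleted arrays, against 11.14 and 11.22. Depleted arrays were below control at day 3 and above it at day 1, and the interaction was -1.85 ± 0.19 (adjusted p = 2.2e-05).

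Xbp1, the factor that builds secretory capacity, differed at day 3 alone by these tests. It read 11.90, 11.85, 11.92 and 11.89 on day 3 depleted arrays, against 12.52 and 12.59 on controls, and 11.84, 11.90, 11.78 and 11.94 at day 1, against 11.71 and 11.79. The day 3 controls stood above the other 10 arrays, and the interaction was -0.77 ± 0.07 (adjusted p = 7.6e-06). Mzb1, a chaperone of IgM assembly, gave -1.45, the signal peptidase subunit Sec11c -1.22 and Irf4 -0.64. Irf4 passed at 1 of 2 probe sets and was higher at day 1 (0.49). The brightest Ighm probe set read 14.20, 14.11, 14.22 and 14.14 on day 3 depleted arrays, against 14.49 and 14.59, and crossed to 14.31, 14.23, 14.29 and 14.30 at day 1, against 13.88 and 13.93. It lies near the top of the array's scale.

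Sdc1 (CD138), the syndecan used to mark plasma cells, was the positive member. It read 10.46 and 10.52 (Jmjd2a) and 10.44 and 10.46 (Jmjd2c) on day 3 depleted arrays, against 9.43 and 9.32 on controls. Its day 1 values were 10.03, 10.31, 10.01 and 10.14, against 10.54 and 10.63. The groups crossed without overlap, and all 4 of its probe sets were positive (1.55 ± 0.11, adjusted p = 1.8e-06). Prdm1, which drives plasma cell fate, gave 0.08 with a 95% interval of -0.33 to 0.50, so an interaction as large as that of Xbp1 lies outside the interval. Secretory pathway and unfolded protein response genes were positive in 14 and negative in 3 of 28 (median 0.21, range -0.99 to 0.82). The chaperones Hyou1 (0.82) and Canx (0.46) were among the positive ones and Edem1 (-0.70) among the negative ones.

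Factors that hold the B cell state did not share one sign. Bach2 read 11.56, 11.58, 11.42 and 11.46 on day 3 depleted arrays, against 10.93 and 10.99 on controls, and 11.50, 11.43, 11.48 and 11.41 at day 1, against 11.61 and 11.53. Its interaction was 0.66 ± 0.06 (adjusted p = 1.2e-05), and all 3 of its probe sets were positive. Pax5 gave 0.08 (95% interval -0.29 to 0.45) and Bcl6 0.28 (0.04 to 0.52, adjusted p = 0.1), and neither passed.

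Surface and antigen-presenting genes of mature B cells were negative, mainly through high values in the depleted arrays of day 1. Of 22 mature B cell identity genes, 15 were negative and 2 positive (Bach2 and the IgM receptor Fcmr), with a median of -0.90. The median difference was -0.11 at day 3 and 0.80 at day 1, where 18 were higher and none lower. Fcer2a (CD23), a receptor for IgE, read 5.35 and 5.2 (Jmjd2a) and 5.48 and 5.17 (Jmjd2c) on day 3 depleted arrays, against 5.12 and 5.53 on controls. The day 1 arrays gave 10.42, 9.75, 10.50 and 10.34 on depleted arrays, against 5.23 and 5.02. High values stood in the depleted day 1 group alone, and the interaction was -5.15 ± 0.25 (adjusted p = 2.9e-07).

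Cr2 (CD21), a complement receptor, gave -4.64 ± 0.23. It read 11.09, 11.45, 11.01 and 11.77 on depleted arrays of day 1 and between 7.34 and 8.26 on the others. The receptor subunit Cd79b gave -2.23 ± 0.12 and Ms4a1 (CD20) -2.14 ± 0.12. All 10 MHC class II presentation genes were negative (median -1.24, with -0.15 at day 3 and 1.04 at day 1), and all 10 were higher in depleted cells at day 1. H2-Ob, part of the H2-O regulator of peptide loading, read 8.94, 8.90, 8.86 and 8.77 on day 3 depleted arrays, against 9.21 and 9.01 on controls, and 11.40, 10.87, 11.34 and 11.27 at day 1, against 8.71 and 8.72 (-2.75 ± 0.16). H2-DMa, of the peptide loader, gave -2.11 and H2-Eb1 -0.80. The macrophage markers described below were high on the same depleted day 1 arrays. Macrophages also present antigen on MHC class II, and the part of those cells in these values was not tested.

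Quiescence genes had the same layout. Of 20 quiescence and kinase inhibitor genes, 14 were negative and none positive (median -1.10, with -0.22 at day 3 and 0.79 at day 1). Btg1, an antiproliferative gene, read 12.52 and 12.53 (Jmjd2a) and 12.47 and 12.42 (Jmjd2c) on day 3 depleted arrays, against 13.01 and 12.91 on controls. At day 1 it read 13.11, 13.04, 13.09 and 12.98, against 12.24 and 12.27. It crossed without overlap, at -1.28 ± 0.06 (adjusted p = 1.9e-07). The glucocorticoid-induced Tsc22d3 gave -3.84, the Myc antagonist Mxd4 -2.78 and Txnip, a brake on glucose uptake, -2.77. Cdkn1b, the p27 cyclin kinase inhibitor, gave -1.45 ± 0.18.

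Immediate early genes did not share one sign. Of 27, 14 were negative and 8 positive (median -0.42). Fos, a subunit of AP-1, read 7.55 and 7.13 (Jmjd2a) and 7.29 and 7.08 (Jmjd2c) on day 3 depleted arrays, against 5.80 and 5.82 on controls. On the day 1 arrays it read 12, 11.94, 12.07 and 12.49, against 6.53 and 6.73. It was above control at both days, by 1.45 at day 3 and 5.50 at day 1, so the negative interaction of -4.05 ± 0.19 (adjusted p = 2.8e-07) is a narrowing. Klf4 gave -3.61 and the phosphatase Dusp1 -2.83. Egr2 crossed the other way, at 1.38 ± 0.10: it read 11.78, 11.80, 11.68 and 11.75 on day 3 depleted arrays, against 10.90 and 10.64, and 11.48, 11.67, 11.47 and 11.59 at day 1, against 11.97 and 11.91. The positive members also held all 3 Nr4a nuclear receptors (0.81 to 1.92), Egr3 (0.52) and Junb (0.48), named here after their values were seen.

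Widening and crossing genes were also looked at across all probe sets, and the genes of this paragraph, some of them list members, were chosen after their values were seen. Differences that kept 1 direction at both days were few: 24 higher and 5 lower among positive calls, and 45 higher and 82 lower among negative calls. Sorl1, a sorting receptor, was higher by 1.87 at day 3 and by 0.51 at day 1, and Fcmr by 2.27 and by 1.34. Klf2, the factor of lymphocyte rest, narrowed: it was higher by 1.47 at day 3 and by 3.85 at day 1 (interaction -2.38 ± 0.33), and Ets1 was higher by 0.57 and by 2.03. Fnbp1l widened downward, lower by 2.12 and by 0.52. The widest positive crossings included Hells, a chromatin remodeller of replicating cells (0.72 at day 3 and -1.04 at day 1), Twsg1 (1.17 and -0.85) and the tRNA methyltransferase Mettl1 (1.08 and -0.82).

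A further set of negative genes was high in the day 3 controls. Of 16 S100, annexin and galectin genes, 13 were negative and 2 positive, with a median of -1.12 that came from day 3 (-1) more than from day 1 (0.18). S100a4, a calcium-binding protein of motile cells, read 7.92 and 7.52 (Jmjd2a) and 7.94 and 7.39 (Jmjd2c) on day 3 depleted arrays, against 9.90 and 9.82 on controls. Its day 1 values were 6.56, 6.15, 6.61 and 6.41, against 5.53 and 5.80. It rose between days in both, by 1.26 in depleted cells and by 4.20 in controls, and the interaction was -2.94 ± 0.24 (adjusted p = 5.6e-06). S100a10 gave -2.14 and its partner Anxa2 -1.48, where 2 of 3 probe sets passed.

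Interferon-induced genes were negative in 11 and positive in 4 of 21 (median -0.49). Gbp2, a guanylate-binding protein, read 11, 10.8, 10.96 and 10.69 on day 3 depleted arrays, against 12.65 and 12.41 on controls, and 9.06, 8.87, 8.85 and 8.98 at day 1, against 9.10 and 9.01. The day 1 groups overlapped in range, and the interaction of -1.55 ± 0.14 came from day 3. Gbp3 gave -1.88 ± 0.14, Irf1 -1.40 ± 0.12 and Rsad2 -1.62 ± 0.16, while Oas1a, Oas2, Oasl1 and Usp18 were the 4 positive ones (0.59 to 1.29, named after their values were seen).

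Homing receptors were negative in 11 and positive in 1 of 16 (median -1.29). Itga4, the integrin that binds Vcam1, gave -3.53 ± 0.17 with 5 of 5 probe sets negative, from high values at day 1 (9.45, 8.97, 9.50 and 9.24 on depleted arrays, against 6.41 and 6.41). The lymph node receptor Ccr7 gave -2.69 and crossed, lower by 0.91 at day 3 and higher by 1.78 at day 1. Cxcr3, a receptor for interferon-induced chemokines, gave -1.76 and differed at day 3 alone by these tests (8.37, 8.07, 8.44 and 8.27 on depleted arrays, against 10.14 and 9.99). Lipid handling genes were negative in 12 and positive in 2 of 18 (median -0.87), with Cd36 at -4.86 and Abca1 at -2.29, and with the fatty acid synthase Fasn at 0.99.

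Among chromatin genes no list had a large median. Of 23 histone demethylases, 6 were positive and 7 negative, and 4 were negative without either day 1 control array. Kdm6b has been given above. Riox1 (1.06 ± 0.09) and Riox2 (0.86 ± 0.08), which act on ribosomal proteins, and the H3K36 demethylase Kdm2b (0.56 ± 0.09) were positive. Of 10 genes of H3K9 methyltransferases and HP1, which write and read the mark that KDM4 enzymes erase, 2 were positive and 3 negative. Suv39h2 gave 1.00 ± 0.18 and Cbx5 0.49 ± 0.11, against -0.77 ± 0.15 for Ehmt2 and -0.74 ± 0.12 for Atf7ip. Of 14 Bcl2 family genes, 4 were negative and none positive. The death-promoting Bcl2l11 (Bim) read 10.50, 10.43, 10.69 and 10.55 on day 3 depleted arrays, against 12.21 and 11.82 on controls, and 9.80, 9.74, 9.82 and 9.67 at day 1, against 10.09 and 10.17 (-1.10 ± 0.13). Bmf gave -2.05, Pmaip1 -0.87 and the protective Mcl1 -0.42.

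Macrophage and NK cell markers had the most negative medians of the gene lists. All 13 macrophage markers were negative, with a median of -3.31 (-1.18 at day 3 and 2.10 at day 1). Their mean level lay between 6.35 and 6.529 on day 3 depleted arrays, against 7.523 to 7.594 on day 3 controls. At day 1 it lay between 8.084 and 9.232 on depleted arrays, against 5.613 to 5.625 on controls. The 4 ranges were separate, and none of the 13 stayed below the array-wide median level of 5.22 in every group. Vcam1, an adhesion protein of splenic macrophages and stroma, read 4.79 and 4.68 (Jmjd2a) and 5.09 and 4.59 (Jmjd2c) on day 3 depleted arrays, against 6.68 and 6.36 on controls. The day 1 arrays gave 9.47, 9.60, 9.47 and 10.33, against 2.93 and 3.23. It was lower at day 3 by 1.73 and higher at day 1 by 6.64, and its fitted interaction was -8.37 (adjusted p = 3.3e-08). Its day 1 control and day 3 depleted values lay under the array-wide median level, where a difference may be cut short by background.

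The complement genes C1qb (-7.41) and C1qa (-5.27), the iron exporter Slc40a1 (-6.17), the growth factor receptor Csf1r (-5.81) and the mannose receptor Mrc1 (-5.49) were likewise lower at day 3 and higher at day 1. Of the 12 most negative, 10 had a group mean under the array-wide median, including all of these but Csf1r, so their fitted sizes are approximate. Frmd4b (-5.01) and Gpr34 (-4.98) stood beside them among the 12 most negative, and both were lower at day 3 and higher at day 1. All 7 NK cell markers were negative (median -2.29), at mean levels of 5.717 to 5.943 on day 3 depleted arrays against 6.972 to 6.985 on controls, and 6.288 to 6.828 at day 1 against 5.06 to 5.156. Gzma, a protease of cytotoxic granules, read 8.65, 8.42, 8.79 and 8.37 on day 3 depleted arrays, against 10.88 and 10.85 on controls, and 9.43, 8.39, 9.37 and 9.15 at day 1, against 5.83 and 6.36. It crossed without overlap, at -5.30 ± 0.34 (adjusted p = 9.8e-07). Of 9 granzymes and cytotoxic genes, 7 were negative. Gzmb gave -2.29 and differed at day 3 alone by these tests. Prf1 gave -1.73 at its brightest probe set, but its 2 probe sets had opposite signs.

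Neutrophil markers differed between replicates at day 1. S100a9 read 5.88, 5.77, 6.20 and 5.77 on day 3 depleted arrays, against 7.70 and 7.31 on controls, and 6.52, 10.54, 6.49 and 11.58 at day 1, against 4.81 and 4.8. Replicate 2 of each label was high at day 1 and replicate 1 was not. The interaction of -5.58 ± 1.64 (adjusted p = 0.029) passed in 6 of the 12 fits that left out 1 array, among them those without either high array. It did not pass without either day 1 control or any day 3 depleted array. S100a8 (-5.53, adjusted p = 0.024) passed in 8 of 12. Of the 7 neutrophil markers, 2 passed, and 0 to 5 did when 1 array was left out (0 without either day 1 control, 5 without Jmjd2c-depleted day 1 replicate 1). In the other marker lists, 4 of 7 T cell markers, 3 of 6 erythroid and platelet markers, 1 of 6 dendritic cell markers (Flt3, -2.22) and 1 of 7 stromal markers (Pecam1, -2.51) were negative and none positive. Erythroid and platelet means were 4.329 to 4.475 on day 3 depleted arrays against 4.43 to 4.455 on controls, and 5.252 to 5.593 at day 1 against 4.331 to 4.369.

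The markers of macrophages and NK cells were thus negative like several lists above, but the layouts were not all alike. On depleted day 1 arrays the mitosis list was lowest (8.149 to 8.203), where the macrophage markers were highest (8.084 to 9.232). The S100, annexin and galectin list was highest in day 3 controls (9.499 to 9.609), as were the NK cell markers (6.972 to 6.985). The part of these markers in the results of the negative lists was not tested. Of the 5 B cell markers, 4 were negative as well. Their means were 9.591 to 9.609 on day 3 depleted arrays against 9.778 to 9.875 on controls, and 10.311 to 10.74 at day 1 against 9.506 to 9.561. The labels give the same culture and bead selection for all groups. Whether the share of each cell type differed between groups was not tested.

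**Figure D5:**
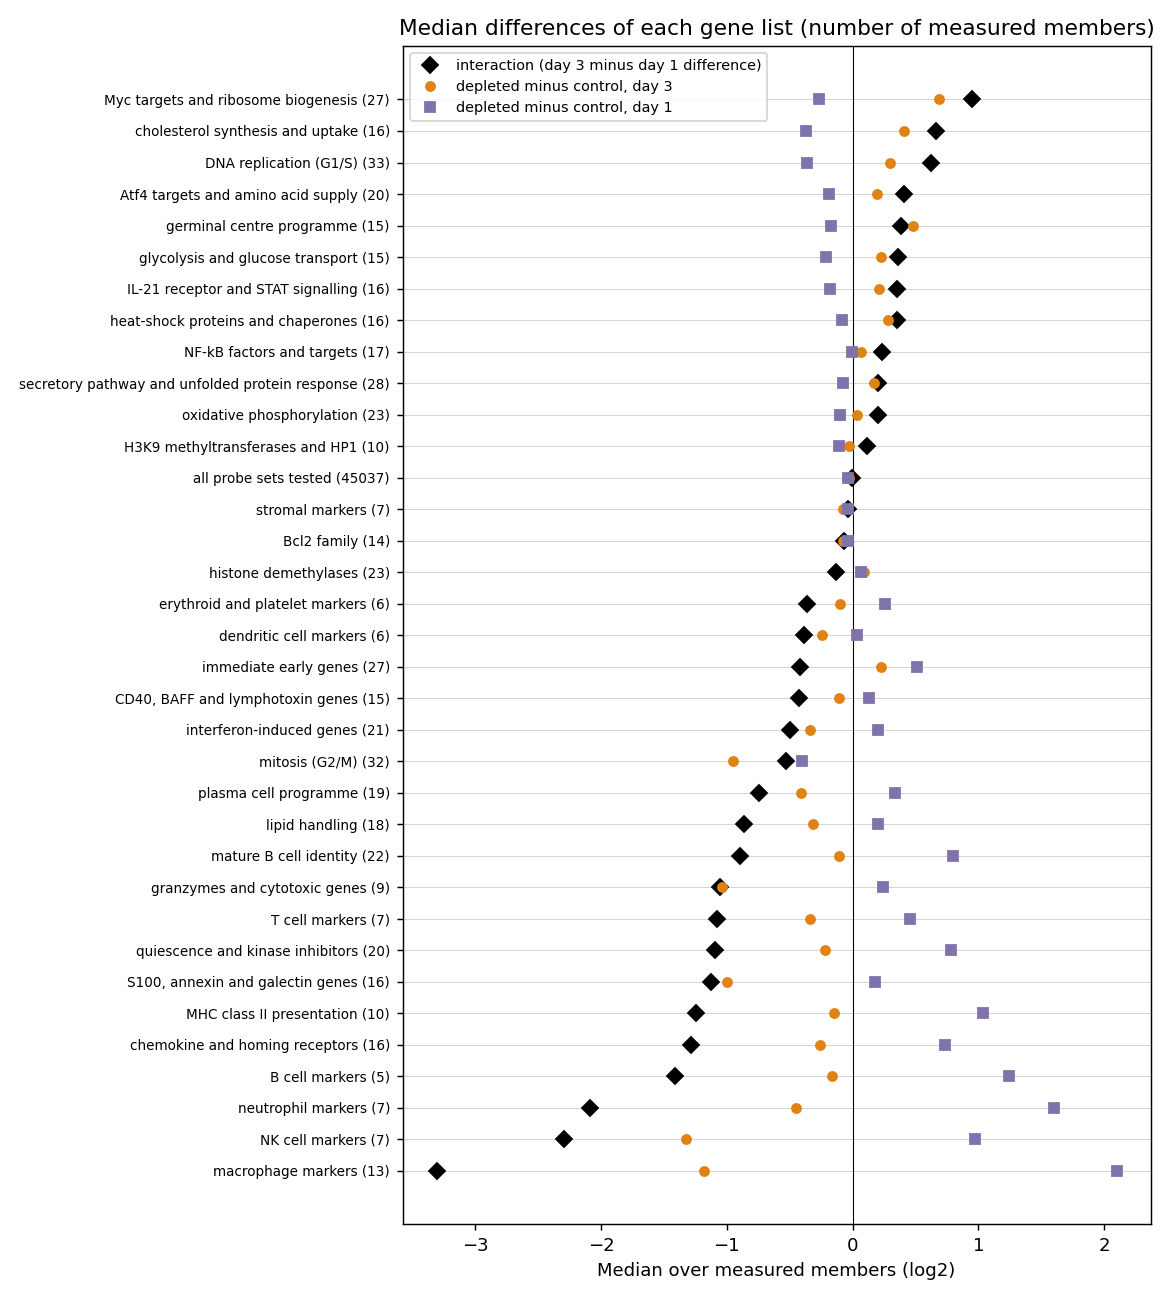
Median log2 value over the measured members of each gene list (rows, number of members in brackets) for the interaction (diamonds) and for depleted minus control at day 3 (circles) and day 1 (squares). Lists run from Myc targets and ribosome biogenesis (0.95) to macrophage markers (-3.31), and the median over all probe sets is -0.006.

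Both labels gave similar interactions. They share the same 4 control arrays, so their values are set side by side and their likeness is no independent evidence. The interaction passed at 8264 probe sets for Jmjd2a (18.3%), 12% positive and 6.36% negative, and at 7879 for Jmjd2c (17.5%), 10.7% positive and 6.84% negative. Pcp4 gave 4.59 and 4.53 for Jmjd2a and for Jmjd2c. In the same order Sdc1 gave 1.52 and 1.58, Xbp1 -0.80 and -0.75, Fcer2a -5.01 and -5.29, Fos -3.82 and -4.28 and Vcam1 -8.25 and -8.50. In the difference between the labels the controls cancel. It passed at 0 probe sets by limma, with 1138 (2.53%) at an unadjusted p under 0.05. The test uses 1 spread shared by all 6 groups, and the day 3 controls enter it with the widest SD (0.259 against 0.115 to 0.157). They cancel from this difference but widen its standard errors on the whole, so 0 calls do not show that the labels are alike. The 95% interval of the difference lay within 1 log2 unit of 0 at 96.5% of probe sets. The median standard error was 0.187, and differences smaller than the intervals were not resolved here.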

How the data were processed

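The values are log2 probe set levels on Affymetrix mouse expression arrays, deposited by the authors in 1 table of 12 columns. How they were normalized is not given in the sources used. Per the labels' protocols, total RNA was extracted with TRIzol and biotin-labelled cRNA was prepared. A day 0 named in the design was not analysed here. The table held 45101 probe sets, and the 64 AFFX controls among them were not tested. Of the 45037 tested, 34945 named 1 gene, 932 several and 9160 none by the platform annotation, and 0 symbols were updated. Probe sets whose names end in _s_at, _x_at or _a_at can read several transcripts.

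The 6 group means of every probe set were estimated by limma 3.58.1 under R 4.3.3, its eBayes step using a trend on mean level (6 residual and 5.85 prior degrees of freedom). Within each contrast the Benjamini-Hochberg adjustment ran over every tested probe set, and 0.05 was the threshold. The pooled interaction weights the 4 depleted arrays of a day equally. All 6 groups share 1 estimate of the spread per probe set, which on the whole is too small for the wider day 3 controls (SD 0.259). The method was tested on simulated data in which all groups shared a common spread per probe set. The wider spread of the day 3 controls was not simulated, so the simulation does not bear on it. The number of arrays limits precision, and log2 values carry no read depth. Replicate numbers were not used as pairs: of 15 pairs of groups, 1 had replicate deviations that correlated above 0.1 (-0.111 to 0.392). That pair was the Jmjd2a- and Jmjd2c-depleted groups of day 1 (0.392). They are pooled here, so these 4 arrays may not be independent.

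The comparison, the 34 gene lists and the motifs were chosen with earlier results of these data known. A list gene was represented by its brightest probe set. Named genes were Kdm4a, Kdm4c and a list of followed genes, the 12 largest interactions in each direction that passed, lay above the median level of 5.22 in their highest group and kept their sign in the most opposed arrays, and up to 4 members of smallest p of each list, with exceptions stated. Not every gene so selected is named. Alternatives were quantile normalization, centring, leaving out dim probe sets, no trend, array weights, 1 probe set per gene, a 1.5-fold floor, 4 group means, a replicate block, an adjusted p under 0.10 and leaving out each array. Plots used Python 3.11.15 and matplotlib 3.10.9.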

Additional observations from a re-analysis of the deposited data

Results flagged for a closer look

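The interaction itself is a difference between the effects at day 3 and day 1, and it passed its test at 9754 probe sets. Crossing effects, past the test at day 3, at day 1 and in the interaction, were found at 1663 probe sets that were higher in depleted arrays at day 3 and lower at day 1. At 773 they were lower at day 3 and higher at day 1. Single arrays stood far from the others of their group in 4 of 80 sets of 4 depleted arrays looked at, and chance gives about 1 in 20. Vcam1 read 10.33 in Jmjd2c-depleted day 1 replicate 2, against 9.47 to 9.60 in the other depleted day 1 arrays. C1qa read 6.14 in Jmjd2c-depleted day 3 replicate 1, against 5.55 to 5.63. Gpr34 read 4.70 in Jmjd2c-depleted day 3 replicate 2, against 5.26 to 5.37. Prdm1 read 7.63 in Jmjd2a-depleted day 1 replicate 2, against 7.19 to 7.25.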

How the results depend on the processing

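With 1 probe set per gene, fewer features were tested and the pooled interaction passed at 5372 (3152 positive, 2220 negative). The counts were then 4684 for Jmjd2a, 4561 for Jmjd2c, 5220 at day 3, 3588 at day 1, and between days 4069 in depleted cells and 5627 in controls. Against a floor of 1.5-fold, a stricter hypothesis, they were 1536 (716 positive, 820 negative), 1159, 1268, 535, 451, 510 and 1050 in the same order. Array weights gave 5095 at day 3 and 9657 at day 1, and between days 10472 in depleted cells and 7166 in controls. Both orders thus turned against equal weights, as they also did without day 3 control replicate 2, and the cause was not tested. Leaving out each array gave 6779 to 15371 for the pooled interaction, 4250 to 9146 positive and 2529 to 6225 negative. It gave 5277 to 14662 for Jmjd2a, 5362 to 12912 for Jmjd2c and 0 to 10 for their difference. At day 3 it gave 6863 to 16489, at day 1 2001 to 9284, and between days 4361 to 10851 in depleted cells and 6066 to 18044 in controls. Each highest value came without day 3 control replicate 1, and 2001 came without day 1 control replicate 2. Replicate number as a block gave 9864 calls and changed no count by over 1.5 times. Among positive and negative calls together the positive share was 62.5%, 46.6% at the 1.5-fold floor and 56.2% to 66.1% otherwise, and no probe set called under an alternative and in the pooled interaction had opposite signs. Signs turned for 3 genes that did not pass: Kdm4c (-0.33 to 0.07 over single arrays left out), Prdm1 (-0.15 to 0.32, with -0.01 after quantile normalization) and Pax5 (-0.03 to 0.18). Prdm1 was -0.02 without Jmjd2a-depleted day 1 replicate 1. The stromal marker median (-0.034) ran between -0.286 and 0.045 over single arrays left out, with 0.045 without day 1 control replicate 1 and 0.041 without day 3 control replicate 2. Of 175 named probe sets, 169 passed. The settings other than leaving out an array kept call and direction in 1330 comparisons, lost the call in 59, gained it in 5 and turned the sign in 1.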
